A study of Mus musculus with 6 samples.

Results

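Cell cycle and DNA replication genes were examined in mouse CD8+ T cells cultured towards a type 1 (Tc1) or a type 17 (Tc17) effector state. The set was a list of 42 genes given in advance by symbol, divided by phase into 15 G1 genes (cyclins, kinases, E2F factors and inhibitors), 10 replication genes and 17 mitosis genes. A gene was represented by a probe set annotated with that symbol alone, and by the brightest such probe set over the 6 arrays where there were several. This measured 40 of the 42 genes, out of 22180 genes with a probe set of 1 symbol. Ccnb1 and Ccne2 were not analysed here, the latter because its probe set is shared with Ints8. The list was not chosen by expression values, but it was drawn up with earlier results of these data known.

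Naive CD8+ T cells were sorted from spleen and stimulated with antibodies to CD3 (1 µg/ml) and CD28 (3 µg/ml) for 4 days. Tc1 cultures received IL-12 and Tc17 cultures received IL-6 and TGF-beta, each over 3 days, and both then spent 1 more day with IL-2. All cells were therefore activated, and no resting or cytokine-free culture was analysed here. Mouse strain and age are not given in the labels. Total RNA was hybridised to single-colour Affymetrix arrays, 3 per group: biological samples 1 and 2, and a technical array numbered 2, which was averaged with sample 2. This left 2 samples per group. The labels do not say whether samples 1 and 2 came from separate animals, so the spread between them may be partly technical. Values are log2 intensities after RMA, a method that corrects background, equalises the arrays and summarises the probes of a probe set. A difference of −1 on this scale is a halving of intensity, and intensities of different genes cannot be compared with each other.

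Division of a T cell is driven by cyclin-dependent kinases. In G1, D-type cyclins with CDK4 or CDK6, followed by cyclin E with CDK2, phosphorylate the retinoblastoma protein and free E2F factors, which switch on replication genes. CDC6 helps load the MCM2-7 helicase on DNA, PCNA clamps the polymerases, and later CDK1 with cyclin B starts mitosis, for which FOXM1 and B-MYB complexes raise the genes of spindle, kinetochore and cytokinesis. CDK inhibitors of the INK4 family (Cdkn2a, Cdkn2b, Cdkn2c) block CDK4 and CDK6, and those of the CIP/KIP family (Cdkn1a, Cdkn1b) mainly block CDK2. Activated CD8+ T cells divide rapidly, and TGF-beta is known for restraining division in many cell types.

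Promoters of replication and mitosis genes are shown because both are known for cell cycle motifs. RefSeq promoter windows (GRCm38.p6, 250 bases before to 50 after a transcription start) were found for 34 of the 42 genes, 40 windows in all. Both strands were searched for an E2F motif (any of TTCCCGC and TTCGCGC and TTGCCGC and TTGGCGC), for a cell cycle homology region, abbreviated CHR (TTTGAA or TTTAAA), and for a CCAAT box (CCAAT), the binding motif of NF-Y. The E2F motif was in 7 of 10 windows of replication genes and 3 of 13 windows of mitosis genes, and in 9.57% of all 32851 windows of the table. The CHR was in 12 of 13 windows of mitosis genes and 3 of 10 of replication genes, and in 27.6% of all windows. The CCAAT box was in 8 of 10 windows of replication genes, 12 of 13 of mitosis genes and 7 of 17 of G1 genes, and in 37.4% of all windows. A CHR together with a CCAAT box was in 11 of 13 windows of mitosis genes, 3 of 10 of replication genes and 2 of 17 of G1 genes, and in 10.7% of all windows. A match is a string of letters and not a shown binding site.

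Below, the 250 bases before the start are printed 5′ to 3′ on the gene's strand for 3 mitosis genes, 2 replication genes and Cdkn2c, the gene with the largest difference between the cultures. Capitals mark E2F, CHR and CCAAT matches on either strand. Matches can overlap: E2F matches on opposite strands share letters at 1 place in Mcm5 and at 2 places in Mcm6, and CCAAT matches do at 1 place in Ube2c.
Cdk1: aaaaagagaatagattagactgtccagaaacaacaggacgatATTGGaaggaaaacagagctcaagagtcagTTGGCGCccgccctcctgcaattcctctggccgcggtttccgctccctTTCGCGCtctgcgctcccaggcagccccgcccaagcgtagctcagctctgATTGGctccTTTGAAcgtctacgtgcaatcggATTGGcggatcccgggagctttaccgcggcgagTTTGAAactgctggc
Ube2c: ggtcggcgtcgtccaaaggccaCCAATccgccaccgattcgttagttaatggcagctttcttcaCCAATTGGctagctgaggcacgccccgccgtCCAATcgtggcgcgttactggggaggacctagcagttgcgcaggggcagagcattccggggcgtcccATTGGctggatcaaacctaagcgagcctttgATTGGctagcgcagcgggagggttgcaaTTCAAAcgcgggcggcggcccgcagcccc
Kif11: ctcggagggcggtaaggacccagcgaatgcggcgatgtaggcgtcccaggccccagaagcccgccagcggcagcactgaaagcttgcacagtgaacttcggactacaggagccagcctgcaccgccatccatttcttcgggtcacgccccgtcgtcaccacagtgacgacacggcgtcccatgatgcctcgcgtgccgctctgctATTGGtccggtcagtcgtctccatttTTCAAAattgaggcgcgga
Mcm5: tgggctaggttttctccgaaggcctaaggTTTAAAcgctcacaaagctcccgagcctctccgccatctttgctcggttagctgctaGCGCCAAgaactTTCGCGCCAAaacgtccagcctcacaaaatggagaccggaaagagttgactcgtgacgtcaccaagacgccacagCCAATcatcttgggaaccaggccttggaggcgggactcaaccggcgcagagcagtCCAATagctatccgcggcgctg
Mcm6: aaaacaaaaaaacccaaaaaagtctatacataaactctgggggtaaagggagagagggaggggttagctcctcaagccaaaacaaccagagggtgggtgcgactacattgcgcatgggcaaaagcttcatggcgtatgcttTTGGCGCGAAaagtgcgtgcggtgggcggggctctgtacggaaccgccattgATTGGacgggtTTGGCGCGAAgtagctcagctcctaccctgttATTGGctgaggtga
Cdkn2c: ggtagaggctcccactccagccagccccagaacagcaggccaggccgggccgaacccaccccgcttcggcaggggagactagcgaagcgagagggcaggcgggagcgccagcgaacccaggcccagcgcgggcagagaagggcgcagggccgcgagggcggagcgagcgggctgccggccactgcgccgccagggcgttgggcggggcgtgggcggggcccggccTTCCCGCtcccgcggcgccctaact
They lie at chr10:69352913-69353162, minus strand (Cdk1), chr2:164769679-164769928, plus strand (Ube2c), chr19:37376132-37376381, plus strand (Kif11), chr8:75109259-75109508, plus strand (Mcm5), chr1:128359706-128359955, minus strand (Mcm6) and chr4:109666757-109667006, minus strand (Cdkn2c, the farther upstream of its 2 windows). Cdk1, Ube2c and Kif11 each hold a CHR and a CCAAT box in these bases, and Cdk1 also holds 2 E2F matches. Mcm5 and Mcm6 hold 3 and 4 E2F matches and also 2 CCAAT boxes each, and Mcm5 holds 1 CHR as well. Cdkn2c holds 1 E2F match and neither of the other motifs. The other window of Cdkn2c holds a CCAAT box after the start and no E2F match or CHR.

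The comparison asked how far proliferation genes differ between Tc17 and Tc1 cells. No measured member passed the test between the cultures, yet their differences leaned one way: 37 of 40 were below 0, that is lower in Tc17, and their median was −0.23 in log2 units, or 14.7% lower intensity. Over all 41345 probe sets the median was −0.02 and 54.7% of differences were below 0. Over the 7863 named genes with a mean of at least 8, a level that 37 of the 40 members reached, the median was 0.0061 and 48.8% were below 0. The difference of 1 of the 40, Cdkn2c, exceeded 0.5 in size, against 5.28% of all probe sets and 10.2% of the named genes with a mean of at least 8. Of the members, 33 had a mean of at least 10. Over the 3394 named genes at that level the median was −0.02, 54.6% were below 0 and 6.48% exceeded 0.5 in size. Comparisons with all genes are descriptions and were not tested.

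In limma's moderated test, adjusted by Benjamini-Hochberg across the whole array, 0 of 40 members had an adjusted p under 0.05 (lowest 0.123). This threshold was passed by 1.01% of all probe sets (0.375% lower and 0.636% higher in Tc17) and by 2.81% of the named genes with a mean of at least 8. At an unadjusted p under 0.05 there were 19 of 40, each lower in Tc17, against 5.91% of all probe sets lower at that level and 13.3% in either direction. Of the 7863 named genes with a mean of at least 8, 908 were lower at that level and 1084 higher, a larger share than of all probe sets. The 3 Tc17 arrays lay entirely below the 3 Tc1 arrays for 31 of 40 members, against 11.9% of all probe sets and 21.4% of the named genes with a mean of at least 8. They lay entirely above for 1 member, Ccnd2, against 11.8% of all probe sets and 23.7% of those named genes. The 95% confidence interval of the difference stayed above −1 for 39 of the 40, Cdkn2c being the exception. That is 97.5% of the members, near the 97.7% of all probe sets. With 2 samples per group a missed threshold does not show equal expression, and leaving out 1 sample moved the difference by over 1.5 times for 20 of the 40 members (7 G1, 4 replication and 9 mitosis genes). With the 6 arrays fitted as separate samples, which treats technical arrays as samples, Cdk6, Ccne1, Cdkn2b and Birc5 were called lower, 4 of 40 against 5.61% of all probe sets, and with the sample as a random block the same 4 were, against 5.02%.

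**Figure D1:**
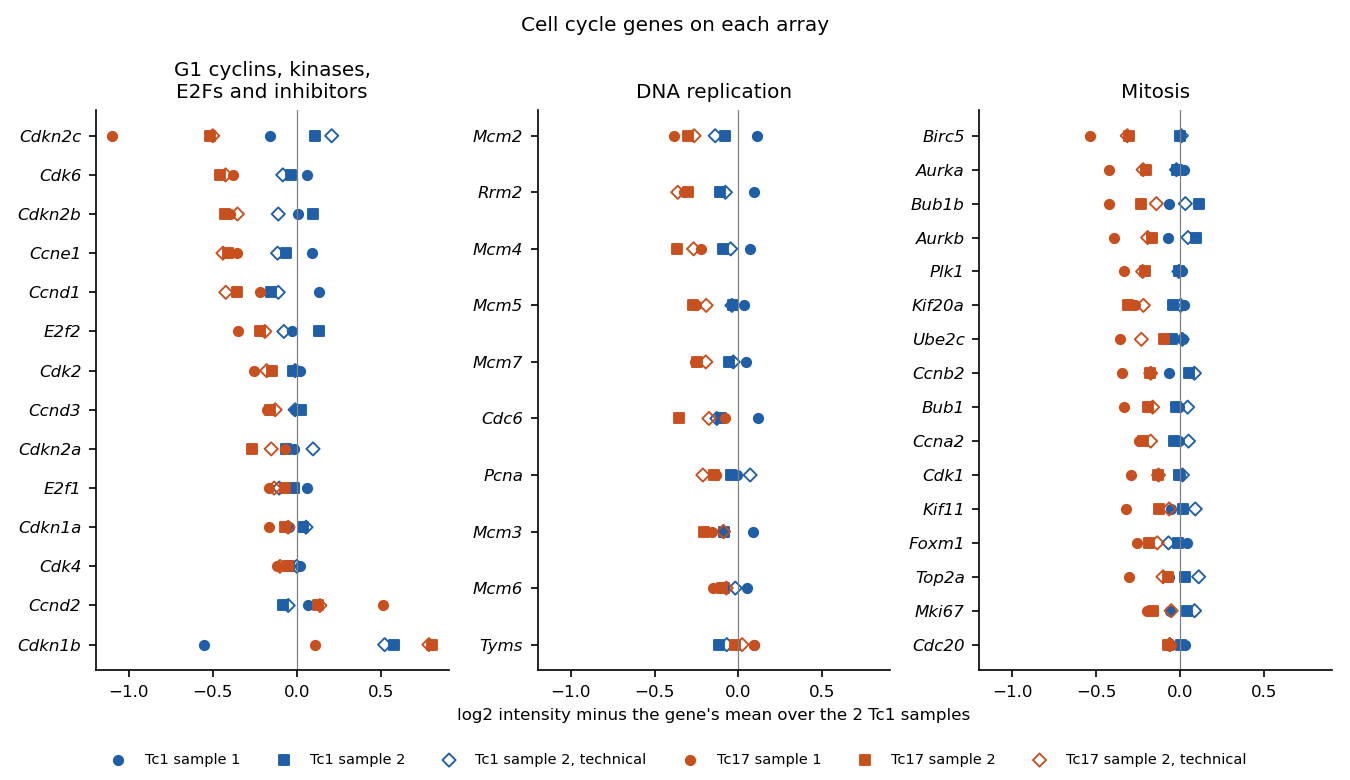
Each point is the log2 intensity of a gene on an array minus the mean of that gene over the 2 Tc1 samples, with Tc1 in blue, Tc17 in orange and open diamonds for the technical arrays. Genes are sorted by their difference within the 3 phase groups. For 31 of 40 genes all orange points lie to the left of all blue points, and Ccnd2 is the only gene with all orange points to the right.

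In bulk RNA, fewer dividing cells and less of a transcript per cell cannot be told apart. The CD8+ T cell label was checked against marker genes: 7 of 8 were measured, and all 7 had a log2 intensity above 8 on every array. Of 9 measured myeloid markers (11 listed), 7 had a difference above 0 and 1, the lysozyme gene Lyz2, passed the test, being higher in Tc17. Its mean was 5.44 in Tc1 and 8.97 in Tc17 (limma adjusted p = 0.00594, a call that ended without Tc1 sample 2). The summed log2 intensity of the myeloid markers ran from 49.2 to 50.1 over Tc1 arrays and from 53.6 to 55.0 over Tc17 arrays. Lyz2 had a difference of 3.53, and those of the other myeloid markers ran from −0.04 (Mpo) to 0.38 (Adgre1). The part of these markers in the results was not tested. No marker of CD4 T cells (3 measured of 3), B cells (5 of 6), NK cells (2 of 4) or erythroid cells (3 of 5) passed; sums of log2 ran from 19.8 to 20.3 in Tc1 and from 19.5 to 19.8 in Tc17 for CD4 T cells, from 31.999 to 32.02 and 32.4 to 32.7 for B cells, from 8.93 to 9.11 and 8.93 to 9.20 for NK cells, and from 19.9 to 20.5 and 20.59 to 20.61 for erythroid cells. Of the 5 measured B cell markers 1, Cd79b, was above 8 on every array, with a mean of 9.80 in Tc1 and 10.32 in Tc17 (limma adjusted p = 0.162). The erythroid marker Epor was above 8 on every Tc17 array and on no Tc1 array (means 8.22 and 7.79, limma adjusted p = 0.225). Their part in the results was not tested. Array medians lay between 6.04 and 6.09.

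The G1 group was the most divided. Of 14 measured genes 12 had a difference below 0 and 2 above, with a median of −0.18, and values ran from −0.80 to 0.45. None passed the test. The D-type cyclins, which couple growth signals to CDK4 and CDK6, pointed in different directions. Ccnd2 (probe set 17471222) measured 12.20 in sample 1 and 12.06 and 12.08 for sample 2 of Tc1, and 12.65 in sample 1 and 12.26 and 12.27 for sample 2 of Tc17. All 3 Tc17 arrays were higher than all 3 Tc1 arrays, by 0.32 ± 0.15 (log2, SE), but Tc17 sample 1 stood apart from sample 2 and the limma adjusted p was 0.476. The difference was 0.13 without Tc17 sample 1 and 0.51 without Tc17 sample 2. Ccnd3 measured 12.52, 12.56 and 12.52 in Tc1 and 12.35, 12.37 and 12.40 in Tc17 (sample 1 first, then both arrays of sample 2, as in all such triplets below). Its groups did not overlap, with a difference of −0.16 ± 0.07 (SE) and a limma adjusted p of 0.456. Ccnd1, the D cyclin of most non-lymphoid tissues, gave 7.38, 7.09 and 7.14 in Tc1 and 7.03, 6.89 and 6.83 in Tc17, a difference of −0.30. It had a mean log2 intensity under 8, and no detection calls were used.

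Of the G1 kinases, Cdk6 had the larger difference and Cdk4 the smaller. Cdk6 (probe set 17434297) measured 12.34 in sample 1 and 12.25 and 12.20 for sample 2 of Tc1, and 11.91 in sample 1 and 11.82 and 11.86 for sample 2 of Tc17. The Tc17 arrays all lay below the Tc1 arrays, and the spread between samples was small beside the difference of −0.41 ± 0.08 (log2, SE, 95% interval −0.63 to −0.19), or 24.7% lower, but the adjusted p was 0.153 in limma's test. Cdk4, whose product does the same work as that of Cdk6, had a difference of −0.10 with an interval of −0.29 to 0.10. Whether the 2 differences differ was not tested. Cdk2, the partner of cyclin E, was at 10.23, 10.19 and 10.20 in Tc1 and 9.96, 10.06 and 10.03 in Tc17, a difference of −0.21. Ccne1, which encodes cyclin E1, was 10.41, 10.25 and 10.21 in Tc1 and 9.96, 9.91 and 9.88 in Tc17. The Ccne1 arrays did not overlap and the difference was −0.39 ± 0.09 (SE), 23.7% lower, with a limma adjusted p of 0.202.

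The genes of the E2F activators had differences below 0. E2f1 measured 10.29, 10.22 and 10.12 in Tc1 and 10.06, 10.16 and 10.09 in Tc17. Its arrays overlapped, since 1 Tc1 array lay below the highest Tc17 array, and the difference was −0.13 ± 0.08 (SE). E2f2 measured 9.42, 9.58 and 9.37 in Tc1 and 9.09, 9.23 and 9.25 in Tc17. Its arrays did not overlap, and the difference was −0.28 ± 0.09 (SE, limma adjusted p = 0.301).

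The 5 CDK inhibitor genes held both the largest negative and the largest positive difference of all members. Cdkn2c, which encodes p18, an inhibitor of CDK4 and CDK6, measured 9.50 in sample 1 and 9.76 and 9.86 for sample 2 of Tc1, and 8.55 in sample 1 and 9.14 and 9.15 for sample 2 of Tc17 (probe set 17428217). All Tc17 arrays lay below all Tc1 arrays, and Tc17 sample 1 was the lowest. The difference was −0.80 ± 0.23 (log2, SE, 95% interval −1.41 to −0.20), 42.8% lower, and it did not pass (limma adjusted p = 0.262). The samples of each group differed by −0.31 in Tc1 and −0.59 in Tc17 (sample 1 minus sample 2). The difference was −0.51 without Tc17 sample 1 and ran to −1.10 without Tc17 sample 2.

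Cdkn2b, the gene of p15 and a well-known TGF-beta target in epithelial cells, had lower values in the cultures that received TGF-beta, without passing the test. It measured 7.86 in sample 1 and 7.95 and 7.75 for sample 2 of Tc1, and 7.46 in sample 1 and 7.43 and 7.50 for sample 2 of Tc17 (probe set 17427155). The groups did not overlap and the difference was −0.39 ± 0.07 (log2, SE, 95% interval −0.58 to −0.21), 23.8% lower, with the lowest adjusted p of all members (0.123 in limma's test). Cdkn2a, its neighbour in the genome, which encodes p16 and p19ARF, measured 7.40, 7.35 and 7.51 in Tc1 and 7.35, 7.15 and 7.26 in Tc17. The Tc17 arrays lay below the Tc1 arrays by less than 0.01 at the nearest point, and the difference was −0.14 ± 0.09 (SE). Both genes had a mean under 8.

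The CIP/KIP inhibitors lay on both sides of 0. Cdkn1b, the gene of p27, which is high in resting T cells, measured 9.10 in sample 1 and 10.23 and 10.17 for sample 2 of Tc1, and 9.76 in sample 1 and 10.46 and 10.44 for sample 2 of Tc17 (probe set 17463718). Sample 1 lay below sample 2 in both cultures, sample 1 minus sample 2 being −1.10 in Tc1 and −0.69 in Tc17, and the groups overlapped. The difference of 0.45 ± 0.43 (SE, 95% interval −0.69 to 1.59) ran from −0.10 without Tc1 sample 1 to 1.00 without Tc1 sample 2. Cdkn1a, the gene of p21 and a p53 target, measured 12.91, 12.99 and 13.01 in Tc1 and 12.79, 12.89 and 12.90 in Tc17. Its arrays only just failed to overlap, with 12.907 on the lowest Tc1 array and 12.902 on the highest Tc17 array. The difference was −0.11 ± 0.08 (SE, 95% interval −0.33 to 0.11), and the limma adjusted p was 0.673. Leaving out 1 sample also moved Cdkn1a (−0.06 without Tc1 sample 2 or Tc17 sample 1), Cdkn2a (−0.07 without Tc17 sample 2), E2f1 (−0.07) and Ccnd1 (−0.17, both without Tc1 sample 1) by over 1.5 times.

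**Figure D2:**
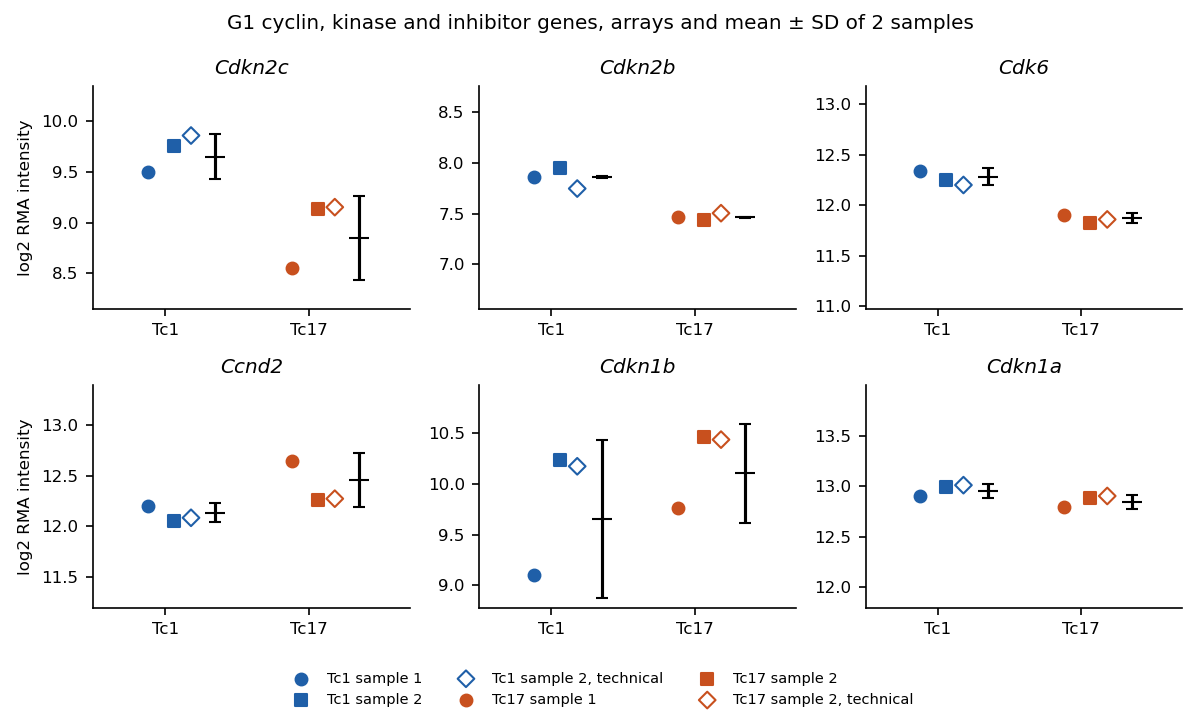
Log2 RMA intensity of 6 G1 genes on each array, with Tc1 in blue and Tc17 in orange, and beside them the mean and SD of the 2 samples per group (the technical array averaged with sample 2). Every panel has the same span. Cdkn2c, Cdkn2b and Cdk6 separate the cultures, Ccnd2 separates them the other way, and in Cdkn1b sample 1 is the lowest of its group in both.

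The replication genes had differences below 0 in 9 of 10 cases, with a median of −0.21, and none passed. All 6 subunits of the MCM2-7 helicase were lower in both Tc17 samples than in both Tc1 samples, with a median of −0.24, where 24.2% of all probe sets and 27.1% of named genes with a mean of at least 8 had such samples. Mcm2 (probe set 17468798) measured 11.81 in sample 1 and 11.62 and 11.56 for sample 2 of Tc1, and 11.32 in sample 1 and 11.40 and 11.44 for sample 2 of Tc17. The arrays did not overlap, and the difference was −0.33 ± 0.11 (log2, SE, limma adjusted p = 0.303). Mcm4 measured 12.28, 12.11 and 12.16 in Tc1 and 11.98, 11.84 and 11.94 in Tc17, with a difference of −0.27 ± 0.09 (SE). Mcm5 measured 12.39, 12.32 and 12.31 in Tc1 and 12.10, 12.08 and 12.16 in Tc17, with a difference of −0.24 ± 0.07 (SE). In both, as in Mcm7 (−0.24), no Tc17 array reached a Tc1 array. Mcm3 and Mcm6 had differences of −0.15 and −0.12, and their arrays overlapped. Cdc6, the gene of the helicase loader, had a difference of −0.17 with overlapping arrays. It ran from −0.29 without Tc1 sample 2 to −0.05 without Tc1 sample 1, and was −0.08 without Tc17 sample 2 and −0.27 without Tc17 sample 1. Without Tc1 sample 1, Mcm3 was at −0.06 and Mcm6 at −0.07, and without Tc1 sample 2 Mcm3 was at −0.24.

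Rrm2 and Tyms, which supply deoxynucleotides, had differences of opposite sign. Rrm2, a subunit of ribonucleotide reductase, measured 12.15 in sample 1 and 11.94 and 11.98 for sample 2 of Tc1, and 11.73 in sample 1 and 11.76 and 11.70 for sample 2 of Tc17 (probe set 17274540). Its arrays did not overlap and the difference was −0.33 ± 0.09 (log2, SE, 95% interval −0.58 to −0.08), 20.4% lower, with a limma adjusted p of 0.261. Rrm2 was the only member with another probe set of its symbol, a dimmer one (mean 6.28), where the difference was −0.61 and did not pass either (limma adjusted p = 0.385). Tyms, thymidylate synthase, measured 9.28, 9.07 and 9.11 in Tc1 and 9.28, 9.16 and 9.21 in Tc17. The arrays overlapped, the difference was 0.05 ± 0.10 (SE), and its sign turned without Tc1 sample 2 (−0.047) and without Tc17 sample 1 (−0.000657). Pcna, the sliding clamp, measured 12.89, 12.85 and 12.97 in Tc1 and 12.77, 12.75 and 12.69 in Tc17. Its arrays did not overlap, and the difference was −0.16 ± 0.07 (SE, 95% interval −0.35 to 0.04).

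All 16 measured mitosis genes had differences below 0, with a median of −0.26, or 16.4% lower intensity, and in each both Tc17 samples lay below both Tc1 samples, against 24.2% of all probe sets and 27.1% of named genes with a mean of at least 8. None passed the test. The values were close to each other: apart from Cdc20 (−0.06) and Birc5 (−0.42) they ran from −0.32 to −0.15. The SD over the 16 genes was 0.08, against 0.11 over the replication genes and 0.31 over the G1 genes. Without the CDK inhibitor genes the G1 value was 0.22. These SDs include the error of each gene's difference, whose median SE was 0.09 for mitosis, 0.09 for replication and 0.08 for G1 genes. Mki67, which encodes the proliferation marker Ki-67, measured 12.23 in sample 1 and 12.33 and 12.38 for sample 2 of Tc1, and 12.09 in sample 1 and 12.13 and 12.24 for sample 2 of Tc17 (probe set 17497334). The highest Tc17 array just passed the lowest Tc1 array, and the difference was −0.15 ± 0.09 (log2, SE, 95% interval −0.38 to 0.08), or 9.99% lower. A difference of −0.5 lay outside this interval, which rests on 2 samples per group and is not adjusted for the number of genes.

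The entry genes of mitosis and their activator came next. Cdk1, the mitotic kinase, measured 12.05 in sample 1 and 12.05 and 12.07 for sample 2 of Tc1, and 11.76 in sample 1 and 11.92 and 11.93 for sample 2 of Tc17 (probe set 17241692). The arrays did not overlap, Tc17 sample 1 was the lowest, and the difference was −0.21 ± 0.09 (SE, limma adjusted p = 0.419). Its cyclin partners Ccna2 and Ccnb2 had differences of −0.22 and −0.26. Foxm1, the transcription factor that raises many mitosis genes, measured 10.15, 10.10 and 10.04 in Tc1 and 9.85, 9.92 and 9.98 in Tc17, a difference of −0.21 ± 0.08 (SE). The kinase genes Plk1, Aurka and Aurkb had −0.27, −0.32 and −0.29. Aurka measured 11.40, 11.36 and 11.36 in Tc1 and 10.96, 11.18 and 11.16 in Tc17, and Aurkb 12.28, 12.44 and 12.39 in Tc1 and 11.96, 12.18 and 12.15 in Tc17. In all of these genes the arrays of the cultures did not overlap.

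The spindle and checkpoint genes held the largest and the smallest difference of the mitosis group. Birc5, the gene of survivin, a partner of Aurora B, had the largest. It measured 9.68 in sample 1 and 9.68 and 9.69 for sample 2 of Tc1, and 9.14 in sample 1 and 9.38 and 9.36 for sample 2 of Tc17 (probe set 17258867). The 3 Tc1 arrays lay within 0.02 of each other and the groups did not overlap, with a difference of −0.42 ± 0.10 (log2, SE, 95% interval −0.70 to −0.15), 25.5% lower, and a limma adjusted p of 0.203. Bub1b, a spindle checkpoint kinase gene, measured 10.74, 10.92 and 10.84 in Tc1 and 10.39, 10.58 and 10.67 in Tc17, a difference of −0.31 ± 0.12 (SE). Its relative Bub1 had −0.26, the motor protein genes Kif11 and Kif20a had −0.21 and −0.27, and Top2a, the topoisomerase that untangles chromosomes, had −0.20. The ubiquitin genes of mitotic exit differed in size: Ube2c had −0.26 with arrays that did not overlap, and Cdc20 had −0.06 (95% interval −0.25 to 0.13) with overlapping arrays. Without Tc17 sample 1, 7 mitosis genes had a difference smaller by at least 1.5 times: −0.21 in Aurka, −0.18 in Aurkb, −0.19 in Bub1b, −0.13 in Cdk1, −0.10 in Kif11, −0.09 in Top2a and −0.16 in Ube2c. Without Tc17 sample 2, Kif11 was at −0.33 and Top2a at −0.31. Without Tc1 sample 2, Mki67 was at −0.09 and Top2a at −0.13, and without Tc1 sample 1 Cdc20 was at −0.03.

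**Figure D3:**
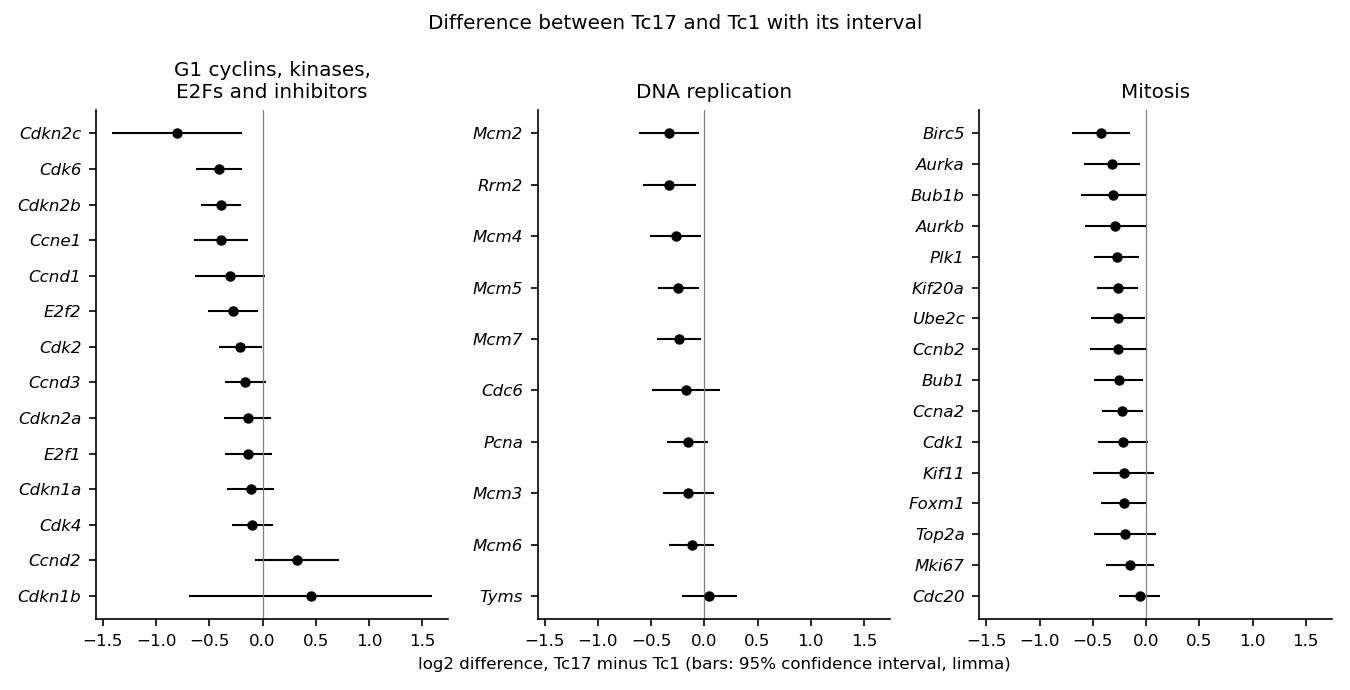
Log2 difference, Tc17 minus Tc1, of each measured gene with its 95% confidence interval from limma (2 samples per group). The 16 mitosis genes lie in a narrow band left of 0, and the G1 genes spread from −0.80 (Cdkn2c) to 0.45 (Cdkn1b), whose interval is the widest.

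Within a culture, samples 1 and 2 were compared by phase. In Tc1, sample 1 was above sample 2 in 9 of 10 replication genes (median difference 0.16) and in 6 of 16 mitosis genes (median −0.0091), against 52.0% of all probe sets. In Tc17, sample 1 was below sample 2 in 15 of 16 mitosis genes (median −0.17), Cdc20 being the exception, and in 5 of 10 replication genes (median −0.0023), against 53.8% of all probe sets. These are 1 sample against 1, with no test.

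The phase medians separated the arrays unevenly. Relative to the Tc1 mean, the median over the mitosis genes was −0.33 in sample 1 of Tc17 and −0.19 and −0.17 on both arrays of its sample 2, while Tc1 arrays lay between −0.0045 and 0.02. The replication median was 0.08 in Tc1 sample 1 and −0.09 and −0.06 on the arrays of Tc1 sample 2, and −0.19, −0.26 and −0.19 in Tc17. The G1 median was 0.01, −0.02 and −0.03 in Tc1 and −0.20, −0.19 and −0.17 in Tc17. In each phase the Tc17 arrays lay below the Tc1 arrays, and the gap was narrowest for replication.

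**Figure D4:**
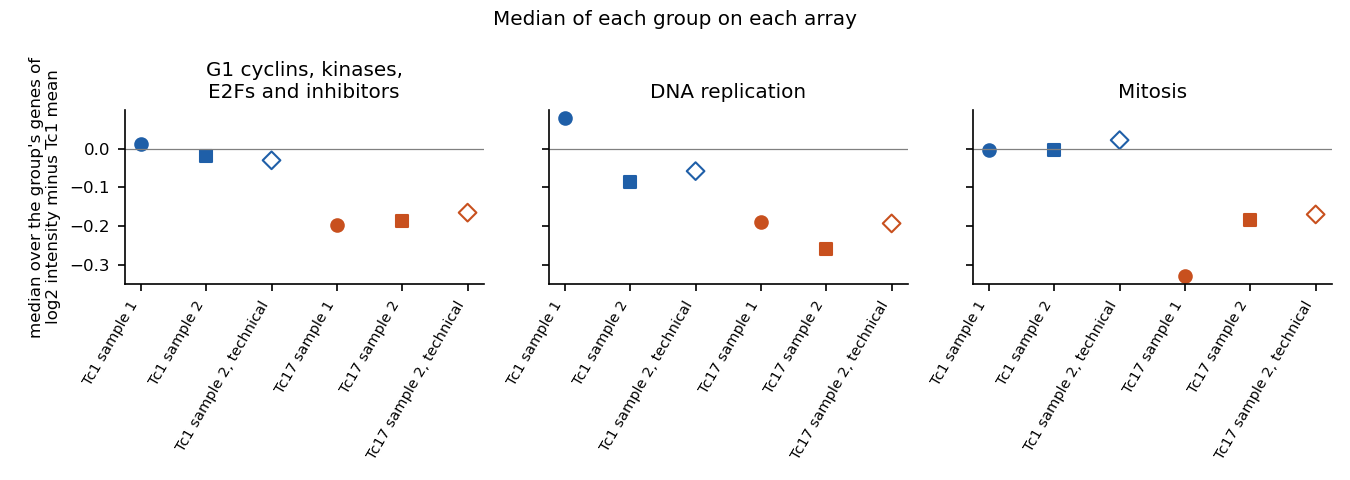
Median over the genes of each phase of the log2 intensity minus the gene's Tc1 mean, for each of the 6 arrays. All Tc17 arrays lie below all Tc1 arrays in the 3 panels, Tc17 sample 1 is lowest for mitosis (−0.33), and Tc1 sample 1 is highest for replication (0.08).

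Other genes of the same phases, from lists set alongside the members, had medians of −0.25 in replication and mitosis and of −0.06 in G1/S regulation. Of 56 other mitosis genes 51 were measured, and 0 passed in limma's test, against 1.01% of all probe sets. At an unadjusted limma p under 0.05, 25 were lower and 0 higher, against 5.91% of all probe sets lower and 13.3% in either direction. Of the 7863 named genes with a mean of at least 8, 908 were lower at that level. All 51 differences were below 0, and the median was −0.25. The largest were those of Lmnb1, a nuclear lamina gene (−0.57), and Spc24, a kinetochore gene (−0.51). In these genes too Tc17 sample 1 was below sample 2, in 47 of 51. Of 50 other replication genes 47 were measured, 0 passed in limma's test (25 lower and 1 higher at an unadjusted p under 0.05), 45 differences were below 0 and the median was −0.25. The largest were those of Rfc3, a clamp loader subunit (−0.55), and Gins1, a part of the replicative helicase (−0.50).

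Among 30 other G1/S regulators 29 were measured, with a median of −0.06, 17 differences below 0 and 12 above. The share below 0 was 58.6%, near the 54.7% of all probe sets. Of the 29, 1 passed in limma's test, where 1.01% of all probe sets did. It was Mycn, a growth-promoting transcription factor gene of the MYC family, which was lower in Tc17. It measured 8.62 in sample 1 and 8.26 and 8.24 for sample 2 of Tc1, and 6.54 in sample 1 and 6.75 and 6.82 for sample 2 of Tc17 (probe set 17279998). Its mean over the 6 arrays was 7.53, and no detection calls were used. The groups lay far apart, with means of 8.43 ± 0.26 and 6.66 ± 0.17 (SD, n = 2) and a difference of −1.77 ± 0.16 (SE, limma adjusted p = 0.0285), 3.42-fold lower in Tc17. Leaving out any 1 of the 4 samples ended this call, with limma adjusted p from 0.0735 to 0.146 and differences from −1.96 to −1.59. Myc, its relative, named after its values were seen, measured 11.92, 11.24 and 11.14 in Tc1 and 11.88, 11.38 and 11.43 in Tc17. Sample 1 was the higher sample of Myc in both cultures, the difference was 0.09 (limma adjusted p = 0.937), and its sign turned without Tc1 sample 2 (−0.28) and without Tc17 sample 1 (−0.15). The largest differences that did not pass were those of Btg1, an antiproliferative gene (−0.43), and E2f8, an E2F repressor gene (−0.41). Tfdp2 and E2f5, named after their values were seen, were close to these in size but higher in Tc17 (0.40 for each).

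Of 20 p53 target genes, a check on the setting of Cdkn1a, 18 were measured and 0 passed in limma's test. At an unadjusted limma p under 0.05, 2 were lower and 1 higher, where 13.3% of all probe sets differed in either direction. Of the 18 differences, 10 were below 0 and the median was −0.07. Trp53inp1 and Fas had the largest differences, 0.58 and 0.45.

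**Figure D5:**
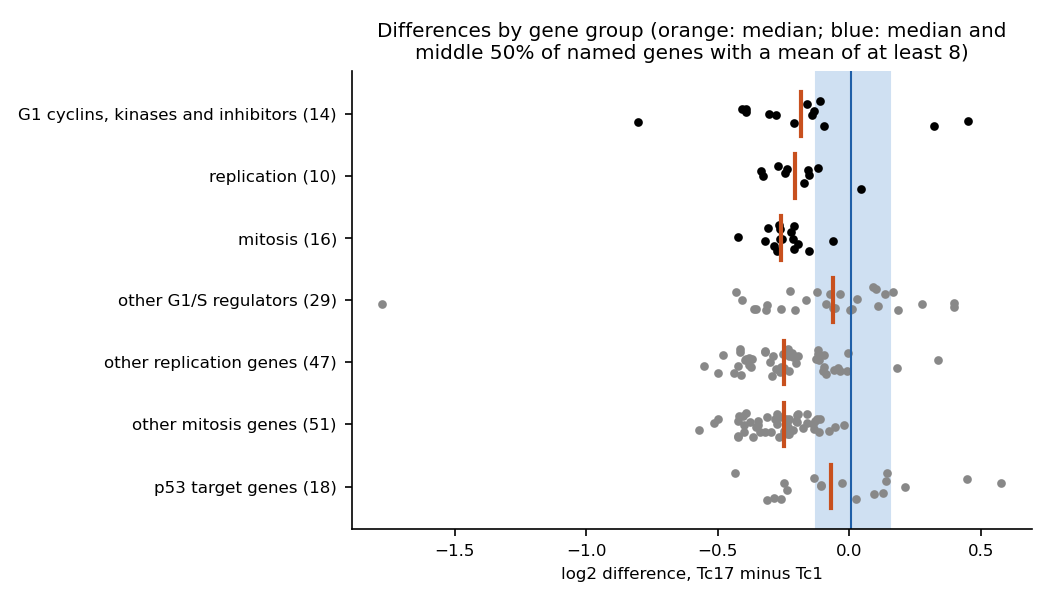
Log2 differences, Tc17 minus Tc1, of the 3 phase groups (black) and of 4 other lists (grey), with the number of measured genes in brackets. Orange bars are medians, and the blue line and band are the median and middle 50% of named genes with a mean of at least 8. The replication and mitosis lists lie mostly left of the band, and Mycn is the grey point at −1.77.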

How the data were processed

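Single-colour Affymetrix arrays measured total RNA of 2 samples per culture. The authors deposited RMA log2 intensities. The submitters' processing notes also name Partek, without versions. The genome build is not given in the sources used here, nor is which arrays were normalized together. Symbols came from the platform's probe annotation: 23521 probe sets had 1 symbol, 1814 several and 16010 none. The technical array was averaged with sample 2. Tc17 was set against Tc1 in limma 3.58.1 (R 4.3.3) by lmFit and then eBayes, without a filter, with 2 residual and 2.63 prior degrees of freedom, adjusting by Benjamini-Hochberg over 41345 probe sets at 0.05. The procedure was tested on simulated data. Members and lists were chosen with earlier results of these data known. Values on every array were given for the 4 largest differences per phase and 14 members set by name. Of other lists, called genes and the 2 largest uncalled differences were named. Promoters came from RefSeq (GRCm38.p6). Alternatives covered how the technical array was used, the replicate number as a block, normalization, filters, moderation and samples left out. Tables and figures used pandas 2.3.3 and matplotlib 3.10.9.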

Additional observations from a re-analysis of the deposited data

How the results depend on the processing

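In the 17 alternative fits 37 or 38 members had a difference below 0 (34 of 37 under the filter at a mean of 8), and the median of each phase stayed below 0. The filters, the moderation settings and the replicate block cannot change a gene's difference, so the signs in those fits were fixed in advance. Median centring shifts all differences by the same small amount. Averaging the technical array, which the labels number 2, with sample 1 called 1581 probe sets (3.82%) and 1 member of 40 (Cdkn2c, limma adjusted p = 0.0415). If it is an array of sample 2, this fit mixes the samples and narrows the spread between them. In Tc17, Cdkn2c measured 9.15 on the technical array, 9.14 on the biological array of sample 2 and 8.55 in sample 1. Fitting the 6 arrays separately, which counts technical arrays as samples, called 2318 probe sets (5.61%) and 4 members, and the random block called 2074 (5.02%) and 4, namely Cdk6, Ccne1, Cdkn2b and Birc5 in both. The reported fit called 418 probe sets, and a filter at a mean of 6, which tests fewer, called 650. With the replicate block 1535 probe sets (3.71%) and 1 member were called (Cdkn2c, limma adjusted p = 0.0262). Deviations of same-numbered samples correlated at 0.313 over probe sets. The labels do not say whether same-numbered samples of the 2 cultures were made together, and this was not tested.

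The G1 median of −0.18 was −0.20 after quantile normalization and −0.16 under the filter at a mean of 8, which dropped Ccnd1, Cdkn2a and Cdkn2b. Leaving out each sample in turn gave 0 to 0 called members and 48 to 125 called probe sets: 107 lacking sample 1 of Tc1, 48 lacking its sample 2, 54 lacking sample 1 of Tc17 and 125 lacking its sample 2. The medians then ran from −0.26 to −0.18 over all members, −0.21 to −0.17 for G1, −0.28 to −0.18 for replication and −0.33 to −0.18 for mitosis. Cdkn1b then ran from −0.10, a reversal, without Tc1 sample 1 to 1.00 without Tc1 sample 2. Tyms ran from −0.047 to 0.14 and Myc from −0.28 to 0.46, reversed in both without Tc1 sample 2 (the lowest values) and without Tc17 sample 1 (−0.000657 for Tyms, −0.15 for Myc). Where no cause is stated, the cause was not tested. No detection calls were used, so the values of Ccnd1, Cdkn2a, Cdkn2b and Mycn could not be set against background.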
